A study of Homo sapiens with 6 samples.

Results

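The genes described here are the nuclear-encoded subunits of the mitochondrial respiratory chain, with the assembly factors and regulators whose names fall in the same families, in LoVo cells with and without knockdown of SRSF11. Members were the protein-coding genes outside the mitochondrial chromosome whose symbols begin with NDUFA, NDUFB, NDUFC, NDUFS, NDUFV, COX4 to COX8, UQCR or ATP5, together with SDHA, SDHB, SDHC, SDHD, CYC1 and CYCS. This rule used no measured value and found 101 of the 58735 genes in the count table. They were grouped as 38 genes of complex I, 8 complex I assembly factors (the NDUFAF genes), 4 genes of complex II, 10 of complex III with CYC1, 19 of complex IV with NDUFA4 and NDUFA4L2, 21 of complex V, and CYCS alone.

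LoVo is an established human colorectal cancer cell line. The cells were transfected with a negative control siRNA (si-NC, 3 libraries) or with one that targets SRSF11, a gene of the SR family of splicing factors (si-SRSF11, 3 libraries), and polyadenylated RNA was sequenced. The study used several siRNAs against SRSF11, and the sources used here do not name the one that was sequenced. No time after transfection is given in the labels. The study describes the libraries as 3 pairs of independent samples, all of 1 line, so that a p-value covers the spread between these samples. The labels do not say whether same-numbered libraries form the pairs.

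The respiratory chain sits in the inner mitochondrial membrane. Complexes I and II pass electrons from NADH and succinate to ubiquinone, complex III passes them on to cytochrome c, and complex IV to oxygen, while complex V, the ATP synthase, makes ATP from the proton gradient. Complex II is encoded by nuclear genes alone, and the other complexes are built from nuclear and mitochondrial gene products, the nuclear ones being imported from the cytosol. NRF1, the ETS factor GABP and YY1 are known to bind the promoters of many of the nuclear genes.

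Many respiratory chain genes were higher after SRSF11 knockdown, by small amounts. Of the 101 members, 92 had at least 10 counts in at least 3 libraries and were tested, and 36 of these changed at an adjusted p under 0.05 in edgeR's quasi-likelihood test over all 15801 tested genes, beside 24.6% of all tested genes. Among them 31 rose (33.7% of the members tested), beside 13.2% of all tested genes, and 5 fell, beside 11.4%. The largest rise was that of ATP5ME, at 1.502-fold, and the largest fall that of NDUFA4L2, to 0.600 of its si-NC level. The median log2 fold change (si-SRSF11 over si-NC) was 0.08 over the members and 0.0015 over all tested genes, and 69 of the 92 values were above 0. Among all 12770 tested protein-coding genes the median was 0.014, and 15.4% rose. With library size alone in place of TMM factors, 25 members rose and 9 fell, with a median of 0.05 beside -0.03 for all tested genes, and among all tested genes 1585 rose and 2289 fell, beside 2081 and 1805 with TMM factors. In bulk RNA, fewer cells of a kind and less RNA per cell cannot be told apart.

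**Figure D1:**
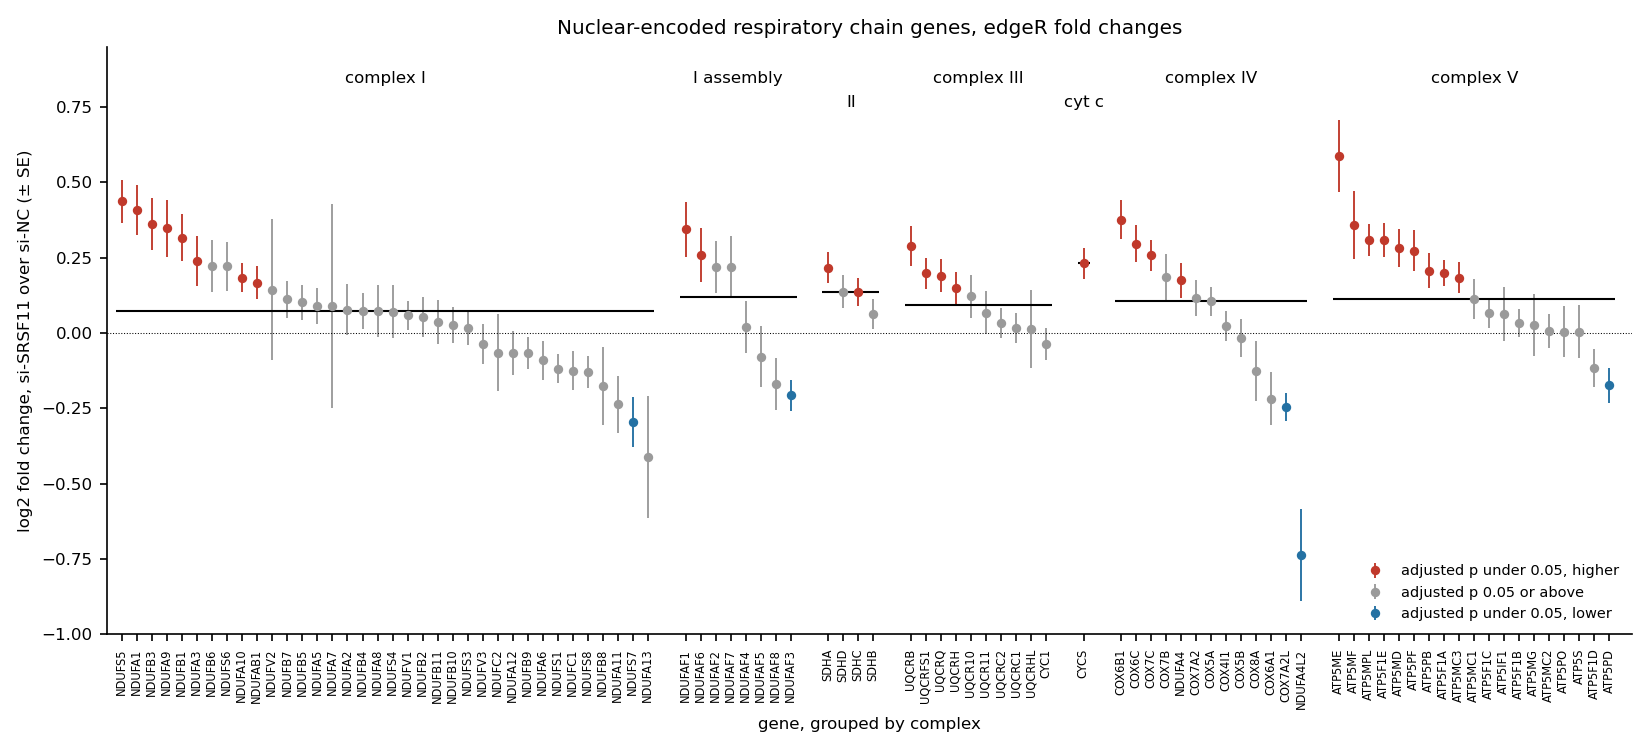
Log2 fold change (vertical axis, si-SRSF11 over si-NC, with its standard error) of the members tested other than 1 that is not shown, grouped by complex and sorted within each; colour marks the edgeR call and black lines mark the median of each group. Calls above 0 stand in every complex, and the 5 members called lower are NDUFS7, NDUFAF3, COX7A2L, NDUFA4L2 and ATP5PD.

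Levels are given as CPM, counts scaled by library size and TMM factor. All 3 si-SRSF11 values lay above all 3 si-NC values in 33 members, beside 20% of all tested genes, and below them in 8 members, beside 18.9%. By complex, 9 of 37 tested genes of complex I were called higher and 1 lower, and 2 of 8 assembly factors higher and 1 lower. In complex II 2 of 4 genes rose and in complex III 4 of 10. In complex IV 4 of 13 rose and 2 fell, and in complex V 9 of 19 rose and 1 fell. Beside these calls, 13.2% of all tested genes rose and 11.4% fell. Falls of 1 or 2 genes in a group are too few to be read against that share. The median log2 fold change was 0.07 in complex I, 0.12 in the assembly factors, 0.14 in complex II, 0.09 in complex III and 0.11 in both complex IV and complex V. Differences between the complexes were not tested.

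Promoters of 81 members were found in the RefSeq table (GRCh38.p14), each from 250 bases before to 50 bases after an annotated start. They were searched on both strands for GCGCATGCG (NRF1), ACCGGAAG (ETS factors such as GABP) and AAGATGGCG (YY1). At least 1 of the 3 motifs was present in 22 of the 81 members (27.2%), in 12.9% of 10391 tested protein-coding genes and in 6.71% of all 27305 genes of the table. The NRF1 motif was present in 12 members (14.8%, beside 4.27% and 2.34%), the YY1 motif in 10 (12.3%, beside 4.63% and 2.14%) and the ETS motif in 6 (7.41%, beside 4.88% and 2.62%). Among members that rose, 3 of 23 with a promoter in the table held a motif (13.0%), against 18 of 48 members that were not called (37.5%) and 1 of 5 that fell. The NRF1 letters and their complement overlap in the palindromic site, which was counted once per gene. A match is a run of letters and not a measured binding site. The promoters of the 4 called members with a motif are shown, with the matches in capitals. They carry all the matches found among members that changed and had a promoter in the table. Called members without a promoter there were not searched. ATP5ME (chr4:674227-674526, minus strand) has an NRF1 match 78 bases before its start and an ETS match on the opposite strand 4 bases after it. ATP5PF (chr21:25735005-25735304, minus strand, the upstream of its listed starts) has an NRF1 match 120 bases and a YY1 match 57 bases before its start. NDUFA9 (chr12:4648864-4649163, plus strand) has a YY1 match 11 bases after its start. NDUFS7 (chr19:1383657-1383956, plus strand) has an NRF1 match on the opposite strand that begins 74 bases before its start and a YY1 match 18 bases after it.
ATP5ME: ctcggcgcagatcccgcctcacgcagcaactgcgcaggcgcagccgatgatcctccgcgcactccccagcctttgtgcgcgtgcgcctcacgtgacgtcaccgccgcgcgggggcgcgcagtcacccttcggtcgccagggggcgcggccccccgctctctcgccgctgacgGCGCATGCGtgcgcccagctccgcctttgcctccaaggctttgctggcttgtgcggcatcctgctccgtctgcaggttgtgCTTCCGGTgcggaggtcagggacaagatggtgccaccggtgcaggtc
ATP5PF: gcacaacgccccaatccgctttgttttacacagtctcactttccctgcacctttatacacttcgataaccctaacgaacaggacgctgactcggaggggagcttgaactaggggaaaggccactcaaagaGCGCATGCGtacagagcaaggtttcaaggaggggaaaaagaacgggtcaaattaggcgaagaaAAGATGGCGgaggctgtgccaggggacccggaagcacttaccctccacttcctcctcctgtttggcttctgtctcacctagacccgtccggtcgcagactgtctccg
NDUFA9: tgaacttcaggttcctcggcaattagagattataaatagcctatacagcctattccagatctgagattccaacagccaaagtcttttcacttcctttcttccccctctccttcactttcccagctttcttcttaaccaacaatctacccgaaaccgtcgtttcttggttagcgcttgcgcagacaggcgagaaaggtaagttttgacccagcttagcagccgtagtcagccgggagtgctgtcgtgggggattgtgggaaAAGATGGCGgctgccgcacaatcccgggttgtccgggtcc
NDUFS7: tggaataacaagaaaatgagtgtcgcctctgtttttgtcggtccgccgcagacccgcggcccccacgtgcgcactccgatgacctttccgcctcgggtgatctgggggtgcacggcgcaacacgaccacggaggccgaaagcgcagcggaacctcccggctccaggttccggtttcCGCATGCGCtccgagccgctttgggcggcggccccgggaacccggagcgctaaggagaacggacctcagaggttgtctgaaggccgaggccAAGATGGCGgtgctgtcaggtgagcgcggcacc

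Complex I has a peripheral arm that oxidizes NADH and reduces ubiquinone and a membrane arm that pumps protons. In the peripheral arm, NDUFS7, the core subunit that carries the last iron-sulfur cluster before ubiquinone, stood at 51.2, 48.2 and 58.0 CPM in si-NC and at 39.96, 38.8 and 49.5 CPM in si-SRSF11, and it fell by 0.30 on the log2 scale (SE 0.083, adjusted p = 0.011). The ranges of NDUFS7 overlapped in the third si-SRSF11 library, and its adjusted p was 0.094 without si-NC replicate 3 and 0.078 without si-SRSF11 replicate 2. Of its exon bases, 37.9% lie opposite the antisense genes AC005329.1 and AC005329.3, which held 97 and 38 counts in all.

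Of the further core subunits of the peripheral arm, NDUFV1, NDUFS1 and NDUFS8 were not called in the main fit. NDUFV1, which binds FMN at the NADH site, stood at 249.7 ± 6.52 CPM in si-NC and 260.1 ± 12.7 CPM in si-SRSF11 (SD, n = 3). NDUFS1, the largest iron-sulfur subunit, had a log2 fold change of -0.12 (adjusted p = 0.086) and NDUFS8, an iron-sulfur subunit next to NDUFS7, one of -0.13 (adjusted p = 0.078). Both were called lower with library size alone and with protein-coding genes only. NDUFS1 was also called lower without si-NC replicate 3, and NDUFS8 with the replicate block and without si-SRSF11 replicate 3. The core subunits NDUFV2 and NDUFS3 were not called either.

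The largest rises of complex I were in accessory subunits. NDUFS5, a small subunit on the intermembrane side of the membrane arm (chr1:39026318-39034636, plus strand), stood at 60.3, 59.1 and 54.5 CPM in si-NC and at 68.4, 79.6 and 87.3 CPM in si-SRSF11. Its log2 fold change of 0.44 (SE 0.071, adjusted p = 1.0e-04) was the largest of the complex, and all 3 si-SRSF11 libraries lay above all si-NC libraries. NDUFA1, a membrane arm subunit, rose by 0.41 (SE 0.082, adjusted p = 8.4e-04), from 29.3 ± 2.56 to 38.9 ± 3.93 CPM. Of its exon bases, 44.5% lie opposite RNF113A, which was not called (log2 fold change 0.0061), and counting by strand is not stated. NDUFB3 and NDUFB1, subunits of the distal membrane arm, rose by 0.36 (adjusted p = 0.0033) and 0.32 (adjusted p = 0.0047). NDUFA9, at the junction of the arms, rose by 0.35 (adjusted p = 0.0089), from 17.3 ± 1.32 to 22.1 ± 1.64 CPM. NDUFB9, the subunit of complex I with the highest level per length, stood at 265 ± 3.53 CPM in si-NC and 253 ± 19.0 CPM in si-SRSF11 and was not called (adjusted p = 0.38). Without si-SRSF11 replicate 3 it was called lower. NDUFA3, NDUFA10 and the acyl carrier protein NDUFAB1 rose as well, with log2 fold changes of 0.24, 0.18 and 0.17. The calls of NDUFA3 and NDUFAB1 were lost in DESeq2 (adjusted p = 0.073 and 0.065) and with library size alone (0.075 and 0.088). NDUFA3 also lost its call without si-NC replicate 1 or 2 or si-SRSF11 replicate 2 or 3 (adjusted p = 0.056 to 0.26), NDUFAB1 without si-NC replicate 1 or 2 or si-SRSF11 replicate 1 or 3 (0.066 to 0.17), and NDUFA10 without si-NC replicate 1 (0.057).

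The NDUFAF assembly factors, which build complex I but are not part of it, moved both ways. NDUFAF1, which acts on the membrane arm, rose from 18.9 ± 0.969 to 24.0 ± 2.08 CPM (log2 fold change 0.34, adjusted p = 0.0074). NDUFAF6 rose by 0.26 (adjusted p = 0.037), a call that was lost without any single library other than si-NC replicate 2 (adjusted p = 0.058 to 0.19). The call of NDUFAF6 was also lost in DESeq2, with library size alone and without the filter on low counts. NDUFAF3, which acts on the ubiquinone-side arm, stood at 126, 119 and 129 CPM in si-NC and at 107, 103 and 114 CPM in si-SRSF11. NDUFAF3 fell by 0.21 on the log2 scale (SE 0.051, adjusted p = 0.0048), each si-SRSF11 library being below each si-NC library. It shares 22.6% of its exon bases with DALRD3 on the opposite strand, and DALRD3 fell by 0.23 (adjusted p = 0.0032). The sources do not say that reads were counted by strand, so reads of the pair may not have been told apart, and the part of DALRD3 in this value was not tested.

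In complex II, SDHA, the flavoprotein that oxidizes succinate, stood at 181.5, 173.4 and 179.7 CPM in si-NC and at 194, 209 and 219 CPM in si-SRSF11. The 3 si-SRSF11 values were above all si-NC values, with a log2 fold change of 0.22 (SE 0.051, adjusted p = 0.0030). SDHC, a membrane anchor that binds heme and ubiquinone, rose by 0.14 (adjusted p = 0.039), a call that was lost without any single library other than si-SRSF11 replicate 1 (adjusted p = 0.064 to 0.16). The call of SDHC was also lost in DESeq2, with library size alone, with upper quartile factors and without the filter on low counts. The iron-sulfur subunit SDHB (log2 fold change 0.06, adjusted p = 0.38) and the other anchor SDHD (0.14, adjusted p = 0.074) were not called. SDHD was called higher without si-SRSF11 replicate 1. All 4 log2 fold changes of this wholly nuclear complex were above 0.

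In complex III, UQCRB, a subunit that binds near the ubiquinone site, stood at 185, 186 and 171 CPM in si-NC and at 189, 236 and 236 CPM in si-SRSF11. The first si-SRSF11 library lay just above the highest si-NC library and the other 2 well above it (log2 fold change 0.29, SE 0.065, adjusted p = 0.0023). UQCRFS1, the Rieske iron-sulfur protein, rose by 0.20 (adjusted p = 0.0072), from 116 ± 2.06 to 133 ± 8.94 CPM. UQCRQ, a small subunit, rose by 0.19 (adjusted p = 0.012), and UQCRH, the hinge protein that helps cytochrome c to dock, by 0.15 (adjusted p = 0.043). The call of UQCRH was lost without any si-NC library or si-SRSF11 replicate 3 (adjusted p = 0.078 to 0.22), and that of UQCRQ without si-NC replicate 1 (adjusted p = 0.10) and without si-SRSF11 replicate 3 (adjusted p = 0.0505). UQCRH also lost its call in DESeq2, with library size alone, with upper quartile factors and with RLE factors. The core protein UQCRC1 stood at 353 ± 13.9 CPM in si-NC and 357 ± 20.1 CPM in si-SRSF11 and was not called, nor was CYC1, the cytochrome c1 subunit, at 503 ± 16.3 and 490.5 ± 38.9 CPM.

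CYCS, the mobile electron carrier between complexes III and IV, stood at 136, 128 and 124 CPM in si-NC and at 142.6, 160.3 and 152.5 CPM in si-SRSF11. It was higher in all si-SRSF11 libraries (log2 fold change 0.23, SE 0.053, adjusted p = 0.0024). Without 1 library in turn its log2 fold change lay between 0.19 and 0.27, and the call was kept each time. Cytochrome c also takes part in apoptosis when it is released from mitochondria, which RNA counts do not measure.

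In complex IV, COX6B1, a subunit on the intermembrane side that links the monomers (chr19:35648223-35658861, plus strand), stood at 91.6, 99.2 and 95.1 CPM in si-NC and at 110.4, 121.1 and 139.5 CPM in si-SRSF11. All 3 si-SRSF11 libraries were above all si-NC libraries, with a log2 fold change of 0.38 (SE 0.065, adjusted p = 1.8e-04). COX6C and COX7C, single-pass membrane subunits, rose by 0.30 (adjusted p = 0.0011) and 0.26 (adjusted p = 7.5e-04). NDUFA4, named as a complex I gene but known as a subunit of complex IV, rose by 0.17 (adjusted p = 0.031), a call that was lost without si-NC replicate 2 or 3 or si-SRSF11 replicate 2 or 3 (adjusted p = 0.054 to 0.20). The call of NDUFA4 was also lost in DESeq2 and with library size alone. COX4I1 and COX5A, which join the catalytic core early in assembly, were not called, with log2 fold changes of 0.02 (adjusted p = 0.78) and 0.11 (adjusted p = 0.11).

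The members of complex IV that fell were COX7A2L and NDUFA4L2. COX7A2L, a relative of COX7A2 that joins complexes III and IV into a supercomplex (chr2:42333546-42425088, minus strand), stood at 141, 143 and 139 CPM in si-NC and at 114, 119 and 122 CPM in si-SRSF11. It fell by 0.25 on the log2 scale (SE 0.047, adjusted p = 5.4e-04), with a gap between the groups wider than the range of either. NDUFA4L2, a relative of NDUFA4 known as a target of hypoxia-inducible factor (chr12:57234903-57240715, minus strand), stood at 8.62, 6.91 and 8.28 CPM in si-NC and at 5.37, 4.37 and 4.54 CPM in si-SRSF11. NDUFA4L2 fell by 0.74 on the log2 scale (SE 0.15, adjusted p = 0.0011), and its share of the level per length of the pair with NDUFA4 was 13.4% in si-NC and 7.60% in si-SRSF11. Both calls were kept in each of the 15 alternative settings. COX7A2 itself was not called (log2 fold change 0.12, adjusted p = 0.16).

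Complex V carries a catalytic head on a rotating ring of membrane subunits. In the head, ATP5F1A, the alpha subunit (chr18:46080248-46104334, minus strand), stood at 598.4, 599.6 and 602.2 CPM in si-NC and at 669.1, 696.9 and 701.3 CPM in si-SRSF11. The si-NC libraries were nearly equal and the si-SRSF11 libraries all higher, with a log2 fold change of 0.20 (SE 0.043, adjusted p = 0.0015). ATP5F1E, the epsilon subunit of the central stalk, rose from 117 ± 8.82 to 145 ± 8.13 CPM (log2 fold change 0.31, adjusted p = 3.3e-04). ATP5F1B, the catalytic beta subunit and the member with the highest level, stood at 1415, 1373 and 1436 CPM in si-NC and at 1436, 1357 and 1529 CPM in si-SRSF11. Its groups overlapped, and its log2 fold change of 0.03 was not called (SE 0.045, adjusted p = 0.64).

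Around the membrane part of complex V, ATP5ME, the e subunit that helps the enzyme to form dimers (chr4:672436-674338, minus strand), stood at 14.6, 17.2 and 16.4 CPM in si-NC and at 18.4, 27.3 and 26.7 CPM in si-SRSF11. Its log2 fold change of 0.59 (SE 0.12, adjusted p = 9.9e-04) was the largest rise of all members, and the value lay between 0.49 and 0.74 with 1 library left out. ATP5ME shares 49.9% of its exon bases with MYL5 on the opposite strand, and MYL5 fell by 0.37 (adjusted p = 0.0024). ATP5MPL and ATP5MD, small proteins bound to the membrane part, rose by 0.31 (adjusted p = 2.0e-04) and 0.28 (adjusted p = 0.0018). ATP5MF, the f subunit, stood at 77.0, 73.2 and 71.3 CPM in si-NC and at 65.9, 111 and 107 CPM in si-SRSF11. The first si-SRSF11 library of ATP5MF lay below the si-NC libraries and the others above, and its edgeR call (log2 fold change 0.36, adjusted p = 0.024) was absent in DESeq2 (adjusted p = 0.30) and without si-NC replicate 2 or 3 or si-SRSF11 replicate 2 or 3 (adjusted p = 0.076 to 0.18). ATP5MF shares 46.2% of its exon bases with PTCD1 and the read-through gene ATP5MF-PTCD1 on the same strand, which held 897 and 5 counts in all. The g subunit ATP5MG, at 25.75 ± 0.502 and 26.2 ± 5.07 CPM, was not called.

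In the peripheral stalk, which holds the head against rotation, ATP5PF and ATP5PB rose by 0.27 (adjusted p = 0.0050) and 0.21 (adjusted p = 0.013), and ATP5PD fell by 0.17 on the log2 scale (adjusted p = 0.032). The call of ATP5PF was lost without si-NC replicate 1 (adjusted p = 0.0504), and that of ATP5PB without si-NC replicate 2 (0.093) and without si-SRSF11 replicate 3 (0.064). Of the exon bases of ATP5PF, 19.5% lie opposite GABPA (log2 fold change 0.23, adjusted p = 0.0545, not called). Of those of ATP5PB, 10.2% lie opposite WDR77. Counting by strand is not stated, and the part of GABPA and WDR77 in these values was not tested. ATP5PD stood at 71.6, 66.1 and 67.5 CPM in si-NC and at 58.25, 59.5 and 64.0 CPM in si-SRSF11, each si-SRSF11 value being lower, and the call was lost without si-NC replicate 1 or 3 or si-SRSF11 replicate 1 or 2 (adjusted p = 0.065 to 0.17). The call of ATP5PD was also lost in DESeq2 (adjusted p = 0.052). ATP5PO, the oligomycin sensitivity subunit, stood at 37.8 ± 5.13 and 37.9 ± 3.16 CPM and was not called. The inhibitor ATP5IF1 stood at 96.0, 98.8 and 93.5 CPM in si-NC and at 77.75, 118 and 105 CPM in si-SRSF11, so that its si-SRSF11 values stood on both sides of the si-NC range (adjusted p = 0.66). Without si-SRSF11 replicate 1 it was called higher. The genes ATP5MC1, ATP5MC2 and ATP5MC3 encode the same mature ring subunit. ATP5MC3 made up 57.4% of their summed level per length in si-NC and 59.4% in si-SRSF11 and rose by 0.18 (adjusted p = 0.0092, and 0.056 without si-NC replicate 1), while ATP5MC1 (0.11, adjusted p = 0.24) and ATP5MC2 (0.0057, adjusted p = 0.95) were not called.

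The isoforms known from heart, muscle, lung or testis were near 0 in these cells. COX6A2 and COX7B2 had 0 counts in all 6 libraries, which allows up to 0.032 CPM (3 counts of 93701127, for counting error only). COX4I2 had 1 count, COX8C 14, COX6B2 30 and COX7A1 46 counts in all, and none of these genes passed the filter on low counts. Their counterparts COX4I1, COX6A1, COX6B1, COX7A2, COX7B and COX8A held 5559 to 30107 counts. At least 99.4% of the level per length of each such pair came from the common isoform in both conditions. COX6A1, the common isoform of its pair, stood at 104 ± 2.05 CPM in si-NC and at 89.2 ± 18.2 CPM in si-SRSF11 and was not called (adjusted p = 0.074). It was called lower with library size alone, without the filter on low counts, with the replicate block and without si-SRSF11 replicate 3. UQCRHL, a retrocopy of UQCRH, held 1.42% of the level per length of that pair in si-NC, and UQCRH shares 15.6% of its sequence windows with it.

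The 3 si-SRSF11 libraries were not alike in these genes. The summed level of all members was 10287, 10261 and 10479.9 CPM in si-NC and 10392, 10866 and 11649 CPM in si-SRSF11, a ratio of means of 1.06, and the first si-SRSF11 library lay within the si-NC range. The median log2 difference of the tested members from their si-NC means was 0.017, 0.073 and 0.20 in si-SRSF11 replicates 1, 2 and 3, and between -0.012 and 0.015 in si-NC. In complex I the first si-SRSF11 library had a median of -0.05, below all si-NC libraries, while in complexes II, III and V all 3 si-SRSF11 libraries were above all si-NC libraries. Replicate 1 had the lowest si-SRSF11 value in 59 of the 92 members (64.1%), against 33.8% of all tested genes and 57.2% of 787 tested protein-coding genes with a transcript under 1000 nt. Replicate 3 had the highest in 66 (71.7%), against 34.9% and 61.2%. In 15 members (16.3%, against 5.01% of all tested genes) replicates 2 and 3 lay above all si-NC libraries and replicate 1 did not.

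**Figure D2:**
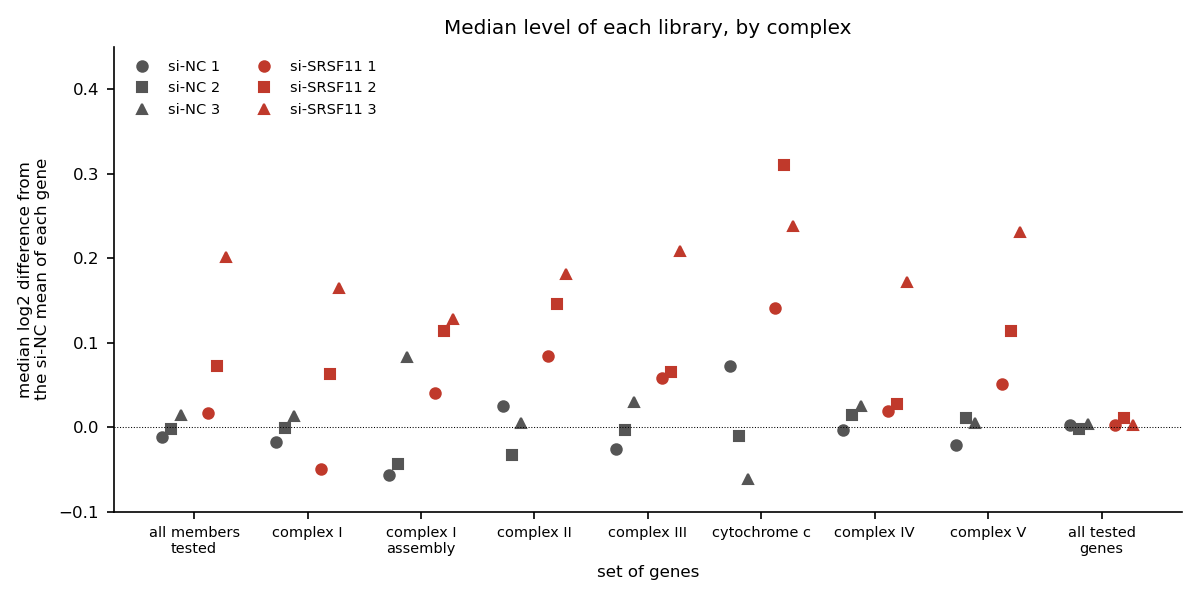
Median over genes of the log2 difference from each gene's si-NC mean (vertical axis), for the members together, for each complex and for all tested genes; each point is 1 library, grey for si-NC and red for si-SRSF11. The si-SRSF11 points of the members spread from 0.017 to 0.20, and those of all tested genes lie between 0.0027 and 0.010.

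The members' count therefore depended on the libraries included. Without si-SRSF11 replicate 1, 35 members rose (38%, beside 11.8% of all tested genes) and 4 fell (4.35%, beside 11.1%), with a median log2 fold change of 0.14. Without si-SRSF11 replicate 3, 22 rose (23.9%, beside 12.7% of all tested genes) and 12 fell (13%, near the 12.1% of all tested genes), with a median of 0.04. Without si-SRSF11 replicate 2, 27 rose (29.3%, beside 10.1%) and 3 fell (3.26%, beside 9.1%). Without 1 of the si-NC libraries, 22 to 26 rose and 4 to 5 fell, beside 9.43% to 10.1% and 8.11% to 9.28% of all tested genes. Of the 36 members called, 22 kept their call with each library left out in turn, among them NDUFS5, SDHA, UQCRB, CYCS, COX6B1, COX7A2L, NDUFA4L2, ATP5F1A and ATP5ME. The median coefficient of variation of the members was 4.64% in si-NC and 7.77% in si-SRSF11, beside 6.46% and 7.60% for all tested genes.

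The median share of G and C bases was lower in the members that rose than in those that fell, which is given as a description. The median share of G and C in the principal transcript was 45.9% in the 31 members that rose, 51.2% in the 56 not called and 62.7% in the 5 that fell. The ranges overlapped, at 38.3% to 57.7% in the members that rose and 43.2% to 66.5% in those that fell. Of those that fell, COX7A2L (43.2%) and ATP5PD (45.1%) lay below the median of those that rose. Of 28 members under 45% G and C, 13 rose and 1 fell, with a median log2 fold change of 0.18, where all tested protein-coding genes of that range had a median of 0.05 and 17.9% rose and 7.48% fell. None of 13 members at 60% or more rose and 3 fell, with a median of -0.13, where all protein-coding genes of that range had a median of -0.06 and 10.2% rose and 20.0% fell. The correlation of log2 fold change with G and C over the 92 members was -0.40 (Pearson) and -0.36 (Spearman), a description over genes that share the same 6 libraries. The members were short, with a median transcript of 945 nt against 2896 nt for all tested protein-coding genes, and the Spearman correlation with length was -0.04. The part of base composition in the fold changes was not tested.

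**Figure D3:**
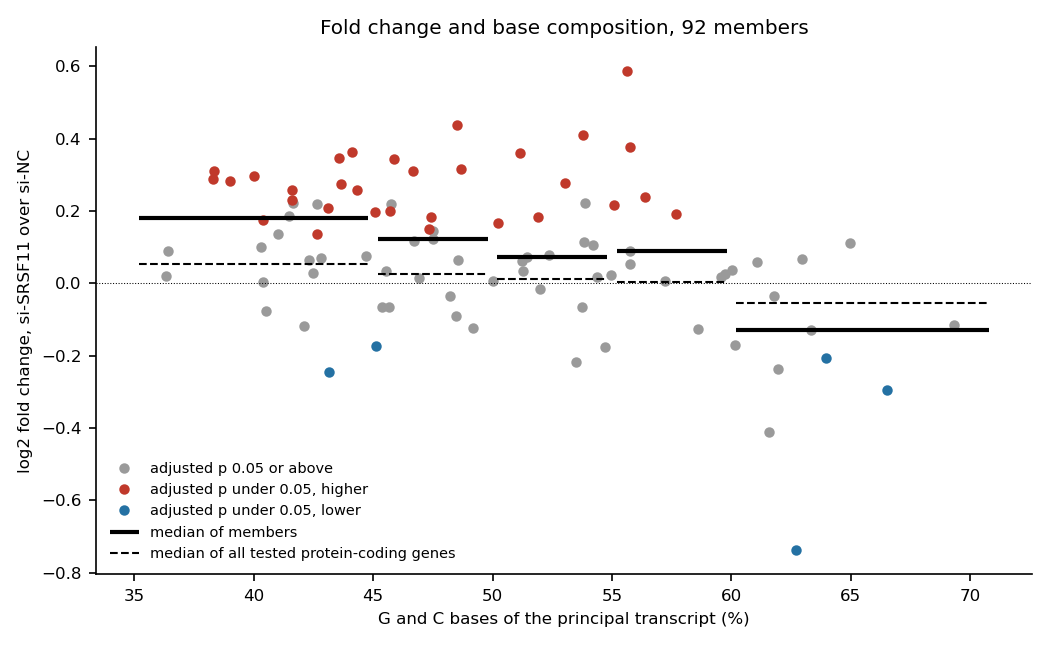
Log2 fold change (vertical axis) of the 92 members against the share of G and C in their principal transcript (horizontal axis, %); solid bars are medians of the members and dashed bars medians of all tested protein-coding genes in the same range. The members' median is 0.18 under 45% and -0.13 at 60% or more.

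Some members had very few counts for a subunit of a complex with fixed proportions. NDUFV2, the partner of NDUFV1 at the NADH site, stood at 2.62 ± 0.206 CPM in si-NC, or 2.82 CPM per kb of transcript, against 156 CPM per kb for NDUFV1. NDUFV2 shares 82.9% of its exon bases with AP005263.1 on the same strand, and AP005263.1 held 0 counts in all 6 libraries. NDUFA7 (1.91 CPM per kb) shares 75.9% of its exon bases with AC010323.1 on the same strand, and NDUFA13 (4.28 CPM per kb) shares 44.1% with AC011448.1. With RPS28, which lies on the opposite strand and held 54686 counts in all, the share of NDUFA7 is 78.7%. The 7 tested members with at least 40% of exon bases shared on the same strand had a median level of 19.1 CPM per kb in si-NC, and the 78 with under 10% had a median of 63.7 CPM per kb. Members with little or no such overlap could be as low. NDUFA9, with 11.8% shared and a transcript of 8363 nt, stood at 2.07 CPM per kb. ATP5S, with 0% shared on the same strand and 10212 nt, stood at 2.29 CPM per kb. On the opposite strand, however, 20.1% of its exon bases overlap CDKL1 and AL359397.2. The sources used here do not say how a read on exons of several genes was counted, so that the levels and fold changes of NDUFV2, NDUFA7, NDUFA13, NDUFA11, NDUFB8 and ATP5PO are uncertain. None of these 6 members was called in the main fit, and NDUFA11 was called lower with library size alone and without si-SRSF11 replicate 3. ATP5MF, with 46.2% shared, was called higher and stood at 242 CPM per kb in si-NC. Level per length also rests on 1 annotated transcript per gene, and that of SDHC, with 13566 nt, is the longest of the members. Members that share at least 10% of their exon bases on the same strand, or of their sequence windows, with another gene were also left out. Of the 76 then tested, 28 rose and 5 fell, with a median of 0.10, beside 13.2% and 11.4% of all tested genes. Members that overlap a gene on the opposite strand alone stayed in. Such overlap reached at least 10% in 13 tested members, of which 6 rose and 2 fell.

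**Figure D4:**
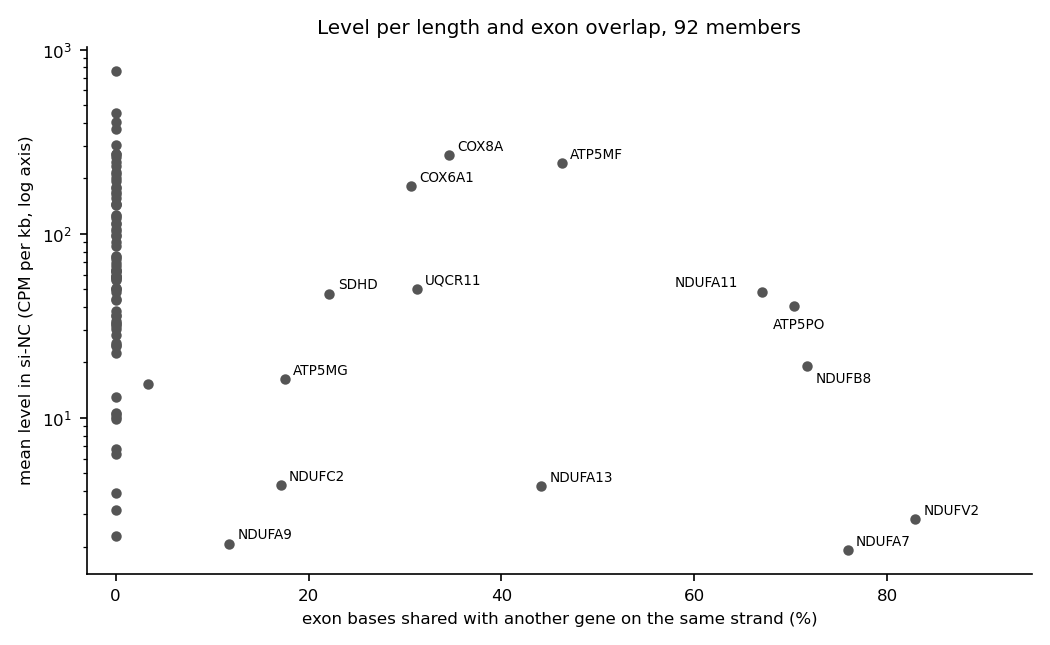
Mean level in si-NC (vertical log axis, CPM per kb of the principal transcript) against the share of exon bases that lie in another gene on the same strand (horizontal axis, %), for the 92 members tested. NDUFV2 and NDUFA7, with over 70% of their bases shared, stand near the bottom at 2.82 and 1.91 CPM per kb. NDUFA9 (11.8% shared) and ATP5S (0% shared) stand there too, at 2.07 and 2.29 CPM per kb.

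The genes around the chain were read from lists written from textbook knowledge. Of the 13 mitochondrially encoded subunits, 12 rose (92.3%, beside 13.2% of all tested genes) and none fell (beside 11.4%). Their median log2 fold change was 0.34, and MT-ATP8 was not called. MT-ND1, a core subunit of complex I, rose by 0.53 (adjusted p = 1.9e-09) and MT-CYB, the cytochrome b of complex III, by 0.42 (adjusted p = 4.6e-08). All counts of the mitochondrial chromosome made up 7.003% to 7.25% of the si-NC libraries and 8.29% to 8.51% of the si-SRSF11 libraries. With these genes left out before scaling, the same 36 nuclear members were called. Of 48 assembly factors outside the naming rule 8 rose (16.7%, near the 13.2% of all tested genes) and 3 fell, beside 11.4% of all tested genes. Among those that rose were UQCC1, which assembles complex III (0.61, adjusted p = 2.0e-07), and LRPPRC, which stabilizes mitochondrial mRNA (0.35, adjusted p = 8.4e-06). CMC2, a complex IV factor, fell by 0.47 (adjusted p = 9.4e-05).

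Of 13 tested transcriptional regulators of the chain 2 rose (15.4%) and 1 fell, close to the 13.2% and 11.4% of all tested genes. PPARGC1B, a coactivator of respiratory genes, rose by 0.47 (adjusted p = 0.0019) and TFB2M, which starts mitochondrial transcription, by 0.43 (adjusted p = 7.2e-04), while GABPB2, a partner of GABPA, fell by 0.25 (adjusted p = 0.049). The GABPB2 call was lost in DESeq2 (adjusted p = 0.080), without the filter on low counts (0.053) and without si-NC replicate 1 or 2 or si-SRSF11 replicate 1 or 3 (0.078 to 0.17). NRF1 (-0.06, adjusted p = 0.67), YY1 (0.04, adjusted p = 0.57) and GABPA (0.23, adjusted p = 0.0545), whose motifs were searched in the promoters, were not called. GABPA was just above the threshold, with each si-SRSF11 library above each si-NC library. It overlaps the member ATP5PF on the opposite strand, so reads of the pair may not have been told apart. Of 18 genes of the tricarboxylic acid cycle 6 rose (33.3%) and 1 fell, with OGDH (0.37, adjusted p = 4.0e-06), SUCLA2 (0.36, adjusted p = 3.6e-05) and the citrate synthase CS (0.20, adjusted p = 0.0038) among those that rose. Of 17 quinone-linked enzymes 4 rose (23.5%) and 2 fell, among them DHODH, which was higher by 0.43 (adjusted p = 0.0034), and COQ4, which fell by 0.24 (adjusted p = 0.0033). Of 77 mitochondrial ribosomal proteins 12 rose (15.6%, near that of all tested genes) and 4 fell, with a median of 0.0085.

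The libraries held 14369525 to 16685719 counts, and the members together made up 1.04% to 1.14% of them. SRSF11 itself (ENSG00000116754) had 1271, 1281 and 1363 counts in si-NC and 789, 789 and 807 counts in si-SRSF11, or 57.2% of the si-NC level in CPM (log2 fold change -0.81, adjusted p = 6.1e-10). The 10 colorectal epithelial markers summed to 6067 to 6443 CPM in si-NC and 6117 to 6545 CPM in si-SRSF11, with KRT20 and CEACAM5 between 6 and 20 counts in each library. The immune, endothelial and fibroblast lists summed to at most 28.9 CPM in any library, and PTPRC, DCN, LUM and KDR were at 0 in each library. PDGFRB of the fibroblast list held 148, 139 and 114 counts in si-NC and 246, 221 and 229 in si-SRSF11, and it was called higher. COL1A1 held 179 to 206 counts in each library and CD14 held 39 to 67. CDX2 of the epithelial list was called higher as well, and no other marker was called.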

How the data were processed

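Members and gene lists were chosen with earlier results of these data known. The deposited table holds raw counts, which the authors made from 150 bp paired-end reads with no scaling and no filter. The submitters' processing notes name the build hg38, and the gene identifiers match GENCODE 29. The aligner and the counting program are not given in the sources used here.

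Libraries were grouped by their labels. A gene needed 10 counts in 3 libraries to be tested. After TMM scaling, edgeR (4.0.16, in R 4.3.3) fitted condition alone with glmQLFit and glmQLFTest, and p was adjusted by Benjamini-Hochberg over 15801 genes, with a threshold of 0.05. The SE came from the F statistic. Values are mean ± SD of 3 libraries. DESeq2 (1.42.0), other scalings, filters and gene classes, a replicate block, and the omission of single libraries served as alternatives. The fit was checked on simulated data.

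GENCODE 29 principal transcripts (APPRIS) gave length, base composition and exon overlap; shared sequence was counted in windows of 100 nt. Named members are up to 5 called members per complex, those called lower, a list of catalytic subunits and isoform pairs, the extremes of level per length and members that overlap other genes. The other called members, MYL5 and DALRD3 were named after their values were seen. Results of some withheld genes are not reported here.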

Additional observations from a re-analysis of the deposited data

How the results depend on the processing

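The correlations of same-numbered deviations were small (0.015, 0.036 and 0.040), although each library correlated best with its own number. They do not settle whether libraries of the same number were paired. With the replicate number as a block, 33 members rose (35.9%, beside 13.6% of all tested genes) and 7 fell (7.61%, beside 12%). The 36 members called without the block were all kept. DESeq2 called 24 members higher (26.1%, beside 10.5% of all tested genes) and 4 lower (4.35%, beside 10.1%), and 28 of the 36 calls were kept. SRSF11 in si-SRSF11 against si-NC stayed between -0.84 and -0.79 on the log2 scale in these settings. The count of respiratory chain members called lower was 9 with library size alone and 3 to 12 with 1 library left out, the others being within 1.5 times of 5. Among all tested genes 14.5% fell with library size alone and 8.11% to 12.1% with 1 library left out. The median log2 fold change of the members lay between 0.04 and 0.14 with 1 library left out. Leaving out the members with shared sequence was chosen after the data were examined. A single member cannot go below p = 0.10 in an exact permutation test of 3 libraries against 3, and 9 members had too few counts to be tested.

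Some members that were not called changed sign, and the cause was not tested. ATP5MC2 had -6.2e-05 in DESeq2, -0.029 with library size alone, -0.0025 with upper quartile factors, -4.6e-05 with RLE factors, -6.8e-04 without the filter and -0.0058 with protein-coding genes only. ATP5PO had -4.7e-04, -0.030, -0.0034, -9.3e-04, -0.0017 and -0.0066 in the same settings. With library size alone ATP5F1B had -0.0015, ATP5MG -0.0080, COX4I1 -0.012, UQCRC1 -0.017 and UQCRHL -0.020. With 1 library left out the log2 fold change ran from -0.070 to 0.043 in ATP5MC2, -0.10 to 0.065 in ATP5PO, -0.016 to 0.075 in ATP5F1B, -0.13 to 0.15 in ATP5MG and -0.074 to 0.21 in ATP5IF1. It ran from -0.038 to 0.055 in COX4I1, -0.26 to 0.048 in COX8A, -0.034 to 0.048 in UQCRC1, -0.060 to 0.069 in UQCRHL and -0.078 to 0.024 in CYC1. It ran from -0.15 to 0.29 in NDUFA7, -0.10 to 0.29 in NDUFV2, -0.17 to 0.041 in NDUFC2 and -0.13 to 0.021 in NDUFAF5.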
